A study of Homo sapiens with 12 samples.

Results

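The miR-320 family is a set of small RNAs that cells can make without DROSHA, the RNase III enzyme of the nucleus by which most primary miRNA transcripts are cut. The 5 members counted here, hsa-miR-320a-3p, hsa-miR-320b, hsa-miR-320c, hsa-miR-320d and hsa-miR-320e, were taken by name from a table of 1277 miRNAs, and none was chosen for how it changed. All 12 libraries came from DROSHA-knockout HCT116, a human cell line from a colorectal carcinoma. Every sample received the pXC-NLS-DG4 plasmid (4.5 µg) and a pCK plasmid, whose amount is given as 4.5 µg for the forms that carry DROSHA. The pCK plasmid carried DROSHA with a belt deletion, DROSHA m4, wild-type DROSHA or no insert (empty), with 3 libraries for each. The labels do not say what m4 alters, what DG4 encodes, or whether the knockout line is a single clone. Small RNAs of 19 to 24 nt were cut from a gel and sequenced.

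Most miRNAs are excised from long transcripts by DROSHA and then from a short hairpin by DICER. In mouse, the miR-320 hairpin is instead the whole product of a short RNA polymerase II transcript: its capped 5′ end is the start of transcription, it leaves the nucleus through the exportin XPO1, and DICER then releases the 3′ strand, while the capped 5′ strand is poorly loaded into Argonaute. miR-484 is another capped hairpin of this kind, and mirtrons such as miR-877, miR-1224 and miR-1226 are short introns released by splicing. Neither class depends on DROSHA in textbook accounts, and these RNAs are the companions to which miR-320 is compared below across the 4 plasmids.

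The paralogs differ so little that sequence decides how well their reads can be told apart. The mature forms below are from RefSeq on GRCh38.p14, written 5′ to 3′ with the seed (bases 2 to 8, the part that pairs with targets) in capitals. They are shown because members b, c and d share a seed while that of e is moved by a base.
miR-320b: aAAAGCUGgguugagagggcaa
miR-320c: aAAAGCUGgguugagagggu
miR-320d: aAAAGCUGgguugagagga
miR-320e: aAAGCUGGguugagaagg

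Counted from the 5′ end of miR-320b, miR-320c carries C20U and miR-320d carries G19A, and both also end earlier, at 20 and 19 nt against 22 nt. miR-320e is annotated at 18 nt, under the lower edge of the gel cut. It starts a base later than miR-320b and, in the same numbering from the 5′ end of miR-320b, carries G17A. The sequence of miR-320a-3p was not among those used here, so its seed was not compared with the others. Outside the family, the only miRNA of the table found with the seed of b, c and d was miR-4429 (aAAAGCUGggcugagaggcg). It had 17 reads over all libraries and 0 to 5 in any of them.

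miR-320b, miR-320c and miR-320d are each encoded by a pair of hairpins, and the deposited table lists each of these names on a line per hairpin. The windows below run 26 bases from the mature 5′ end in each copy, with the first base that differs between the copies in capitals. They are shown because a read that ends before that base fits both hairpins equally well.
MIR320B1: aaaagcuggguugagagggcaaaCaa
MIR320B2: aaaagcuggguugagagggcaaaAgg
MIR320C1: aaaagcuggguugagaggguaGaaaa
MIR320C2: aaaagcuggguugagaggguaAgaaa
MIR320D1: aaaagcuggguugagaggaUgaaaag
MIR320D2: aaaagcuggguugagaggaGcagaaa

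The copies are identical over 23 bases for miR-320b, 21 for miR-320c and 19 for miR-320d, so a read of 20 nt or more can carry a base that tells the miR-320d copies apart. The 7 hairpins of b to e lie at scattered places in GRCh38. MIR320B1 is at chr1:116671746-116671817 on the plus strand, MIR320D1 at chr13:40727816-40727887 on the minus strand and MIR320D2 at chrX:140926160-140926231 on the minus strand, none of them inside a gene of GENCODE 29. MIR320B2, at chr1:224257040-224257110, lies in an intron of NVL, and MIR320E, at chr19:46709282-46709354, in an intron of PRKD2, both on the minus strand like their host. MIR320C1, at chr18:21683518-21683589, and MIR320C2, at chr18:24321675-24321746, lie on the plus strand opposite introns of ABHD3 and OSBPL1A.

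The whole MIR320B2 hairpin, with the mature strand in capitals, shows the form of the family, in which the mature RNA occupies the 3′ side and little sequence follows it.
MIR320B2: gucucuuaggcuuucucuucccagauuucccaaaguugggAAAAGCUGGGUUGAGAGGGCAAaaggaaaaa

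The 7 hairpins were 71 to 73 nt long, against a median of 80 nt over 1560 RefSeq hairpins. Their predicted folding energies ran between -33.9 and -23.0 kcal/mol (median -30.7), against a median of -36.4 kcal/mol over the same 1560.

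The libraries held 101886 to 332081 reads once lines that repeat a miRNA were collapsed, with 649 to 800 miRNAs detected. The 7 intestinal and colon-cancer miRNAs listed for checking the line were all among the counted names. They summed to 23.9 to 27.3% of a belt-deletion library, 3.55 to 7.01% with m4, 19.5 to 32.8% with wild type and 1.07 to 1.35% with empty plasmid, nearly all of it miR-21-5p. The others were scarce: miR-200c-3p had 41 to 130 reads in a library, miR-31-5p 13 to 59, miR-192-5p 1 to 25 and miR-215-5p 0 to 10. miR-141-3p had 0 to 6 and miR-194-5p 0 to 5, with 0 in every empty-plasmid library for miR-194-5p. Of the other cell-type markers, miR-126-3p (endothelium) reached 524 reads in a belt-deletion library, 147 with m4, 416 with wild type and 16 with empty plasmid, miR-122-5p (liver) reached 118 in an empty-plasmid library, and miR-9-5p (neurons) had 28 to 89 reads over all libraries. The smooth-muscle miR-143-3p had 148 to 240 reads with the belt deletion, 102 to 204 with m4, 77 to 85 with wild type and 157 to 223 with empty plasmid, while miR-145-5p, of the same type, had 0 to 3. miR-223-3p and miR-142-3p (blood) had no line in the deposited table. m4 repeat 2 stood apart from the other m4 libraries in the scaled level, which is also given without it. That library also stood apart in the family ratios to mir-484, mir-877 and mir-1226, but not to mir-1224. The labels do not say whether repeats were separate cultures, so every p-value measures only the spread between these libraries.

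Without DROSHA, miR-320 made up most of the library, and every DROSHA plasmid came with a smaller miR-320 share. The 5 members together took 39.1, 35.7 and 45.3% of the reads with the belt deletion, 62.2, 74.4 and 55.3% with m4, 32.9, 27.9 and 47.0% with wild-type DROSHA and 77.9, 79.0 and 82.4% with empty plasmid. All 9 libraries with a DROSHA plasmid lay under the lowest empty-plasmid library, and the m4 libraries lay above every belt-deletion and wild-type library. Wilson 95% intervals were narrow at this depth (27.7 to 28.1% for the lowest library), and they cover counting error only. A read counted under several member names would enter the family sum more than once, and this was not tested. miR-320a-3p alone took 21.3 to 27.2% with the belt deletion and 33.2 to 44.5% with m4. It took 17.1 to 28.2% with wild type and 46.5 to 48.9% with empty plasmid.

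**Figure D1:**
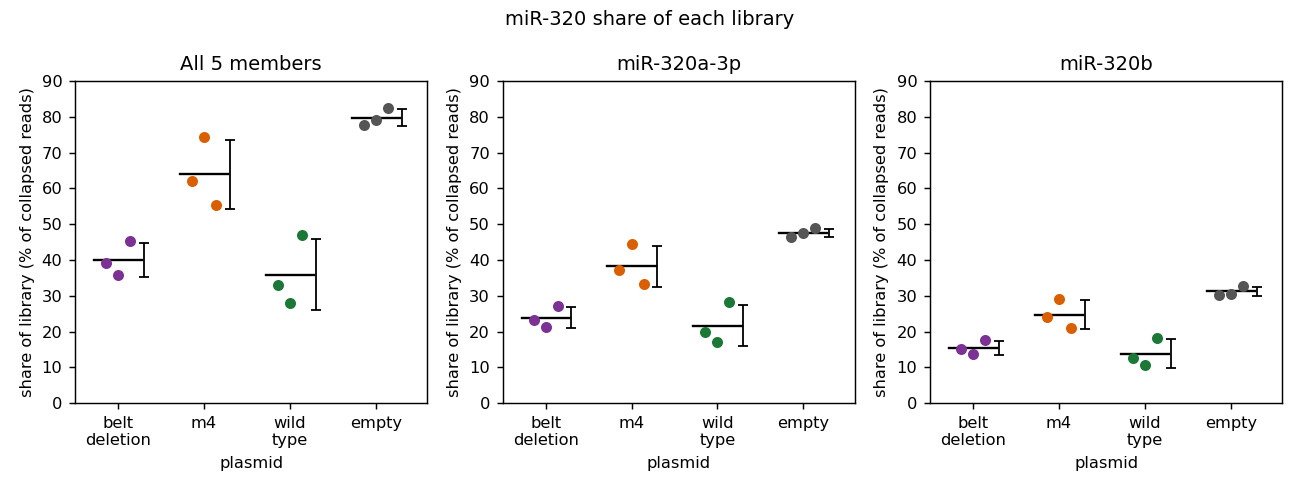
Share of each library taken by all 5 members, by miR-320a-3p and by miR-320b, in percent of collapsed reads; points are single libraries, long bars the mean and error bars the SD of 3 libraries. Empty-plasmid libraries lie highest in each panel (77.9 to 82.4% for the family), m4 libraries next (55.3 to 74.4%), and belt-deletion (35.7 to 45.3%) and wild-type libraries (27.9 to 47.0%) overlap.

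On the log2 scale the family share differed by -1.001 between belt deletion and empty plasmid (2.00-fold lower), by -0.33 between m4 and empty plasmid (1.26-fold lower) and by -1.18 between wild type and empty plasmid (2.27-fold lower). With m4 the share was 1.81-fold higher than with wild type. The share under belt deletion was 1.59-fold lower than that under m4. These 5 contrasts had no overlap between groups, and a two-sided exact permutation test gave p = 0.1 for each, the smallest p that 3 libraries against 3 allow (adjusted p = 0.12 over 6 contrasts). Belt-deletion and wild-type libraries overlapped (log2 difference 0.18, exact permutation p = 0.5). Such separation was common over the 307 miRNAs tested: 58.6% for belt deletion against empty, 51.5% for m4 against empty and 72.3% for wild type against empty. Between DROSHA plasmids it was 56.0% for m4 against wild type, 37.8% for belt deletion with wild type and 52.1% for belt deletion with m4. Being lower without overlap was rarer where m4 was set against empty plasmid, at 1.95% of miRNAs, than for belt deletion (20.5%) or wild type (31.3%) against empty plasmid, or for belt deletion against m4 (34.9%).

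A share falls when other miRNAs are added, so the share alone cannot tell less miR-320 from more of the rest. miR-21-5p, a DROSHA-dependent miRNA abundant in this line, had 65.5 ± 11.2 reads per 100 family reads with the belt deletion, 8.48 ± 3.88 with m4, 80.8 ± 38.0 with wild type and 1.52 ± 0.222 with empty plasmid (SD, n = 3 each). let-7i-5p had 18.2 ± 3.62, 1.29 ± 0.552 and 23.0 ± 7.47 reads per 100 family reads with belt deletion, m4 and wild type, and 0.248 ± 0.0453 with empty plasmid (SD, n = 3 each). miR-10a-5p had 4.76 ± 1.36, 0.927 ± 0.427 and 6.18 ± 2.77 with the same 3 plasmids, and 0.0509 ± 0.00909 with empty plasmid (SD, n = 3 each). All 3 canonical miRNAs were lowest beside miR-320 with empty plasmid, next with m4, and highest with belt deletion and wild type, whose ranges overlapped. They were chosen with earlier results of these data known, so this order describes them and is no test.

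Inside the family, miR-320a-3p and miR-320b kept nearly the same proportion in all 12 libraries. miR-320a-3p held 59.3 to 61.2% of family reads and miR-320b 38.0 to 39.7%, while miR-320c held 0.741 to 1.16%, miR-320d 0.0263 to 0.540% and miR-320e 0.00107 to 0.351%. miR-320a-3p was the first or second most abundant miRNA of every library. Its reads were 75465, 51061 and 90254 with the belt deletion, 37938, 99443 and 35904 with m4, 56483, 29753 and 60724 with wild type and 116074, 96218 and 134760 with empty plasmid. These raw counts follow library size as well as plasmid, so the balance is given as reads per 1000 miR-320a-3p reads.

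**Figure D2:**
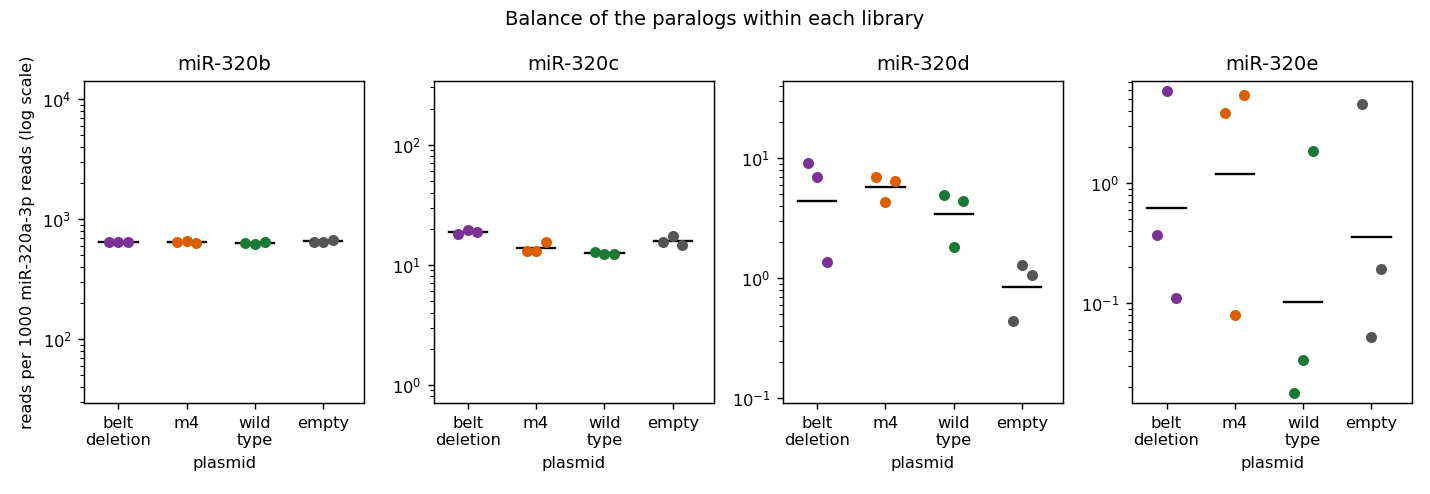
Reads of miR-320b, c, d and e per 1000 miR-320a-3p reads in each library, on log axes that span the same number of folds; points are libraries and bars geometric means of 3. miR-320b stays within 621 to 670, miR-320c is highest with the belt deletion (18.1 to 19.4), miR-320d is lowest with empty plasmid (0.439 to 1.28) and miR-320e scatters within every group.

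miR-320b ran between 621 and 670 reads per 1000 miR-320a-3p reads, a 1.08-fold range over 12 libraries. Its groups overlapped in all 6 contrasts, with log2 differences between -0.04 and 0.02 (exact permutation p of 0.2 to 0.9). The SD over libraries of the log2 ratio of a member to the sum of the other members was 0.028 for both a and b, against 0.24 for c, 1.38 for d and 2.87 for e. How the submitters assigned a read that fits several hairpins is not given in the sources used here, and whether a and b share reads was not tested.

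miR-320c was higher beside miR-320a-3p with the belt deletion. It had 18.1, 19.4 and 18.9 reads per 1000 miR-320a-3p reads with the belt deletion, 13.0, 13.1 and 15.6 with m4, 12.8, 12.3 and 12.4 with wild type and 15.4, 17.5 and 14.7 with empty plasmid. The belt-deletion libraries lay above all others and the wild-type libraries below all others. The log2 difference was 0.59 for belt deletion against wild type (1.502-fold), 0.44 against m4 and 0.25 against empty plasmid, and -0.34 for wild type against empty plasmid. Each of these had an exact permutation p of 0.1 and an adjusted p of 0.3 over the 24 ratios and contrasts. Measured against the family sum, groups did not overlap for 53.3% of miRNAs between belt deletion and empty plasmid, 57.5% between m4 and empty plasmid and 56.5% between wild type and empty plasmid. The same held for 37.1% between m4 and wild type, 25.1% between belt deletion and wild type and 26.3% between belt deletion and m4. edgeR called no difference of miR-320c relative to the family in any contrast.

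The gap in miR-320c depended on which hairpin line was read. Counted on the mir-320c-1 line in place of mir-320c-2, which has more reads, belt deletion against wild type still did not overlap (log2 difference 0.35, exact permutation p = 0.1), while belt deletion overlapped m4 (0.25) and empty plasmid (0.22). On that line wild type overlapped empty plasmid (log2 difference -0.13, exact permutation p = 0.3), and m4 overlapped wild type (0.10, exact permutation p = 0.6). The 2 lines differed by a median of 3.35% in a library and by at most 34.9%, in empty repeat 2.

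miR-320d, on the mir-320d-2 line that carries more of its reads, was scarcest with empty plasmid. It had 683, 357 and 124 reads with the belt deletion, 264, 428 and 231 with m4, 278, 54 and 268 with wild type and 51, 123 and 144 with empty plasmid. Per 1000 miR-320a-3p reads that was 9.05, 6.99 and 1.37 with the belt deletion, 6.96, 4.30 and 6.43 with m4, 4.92, 1.81 and 4.41 with wild type and 0.439, 1.28 and 1.07 with empty plasmid. Every library with a DROSHA plasmid exceeded every empty-plasmid library, although belt-deletion repeat 3 did so narrowly.

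Relative to the family, edgeR's quasi-likelihood test with Benjamini-Hochberg adjustment over 315 miRNAs called miR-320d higher with each DROSHA plasmid. The log2 change against empty plasmid was 2.64 for belt deletion (SE 0.53, adjusted p = 1.9e-05), 2.67 for m4 (SE 0.53, adjusted p = 2.9e-05) and 2.02 for wild type (SE 0.52, adjusted p = 0.000597). It was the only member called, and it was called in none of the 3 contrasts between DROSHA plasmids. Measured against miR-320, however, a call was common: 45.4% of miRNAs were called higher for belt deletion against empty plasmid, 55.2% for m4 and 46.3% for wild type. Between DROSHA plasmids the share called in either direction was 31.7% for m4 and wild type, 9.52% for belt deletion and wild type, and 19.0% for belt deletion and m4.

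The change of miR-320d was seen on a single hairpin line. On the mir-320d-1 line it had 300, 134 and 36 reads with the belt deletion, 263, 558 and 48 with m4, 118, 112 and 98 with wild type and 79, 125 and 995 with empty plasmid. All groups overlapped there, and empty repeat 3 alone held more reads than any other library. With that line in use the edgeR log2 change relative to the family was -0.41 for belt deletion (adjusted p = 0.798), 0.58 for m4 (adjusted p = 0.649) and -0.30 for wild type (adjusted p = 0.867). With the lines summed it was 1.02 (adjusted p = 0.284), 1.39 (adjusted p = 0.102) and 0.65 (adjusted p = 0.535) for the same plasmids. The miR-320d lines differed by a median of 2.32-fold in a library and by up to 6.91-fold, whereas the miR-320b lines, identical over 23 bases, differed by at most 0.538%.

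**Figure D3:**
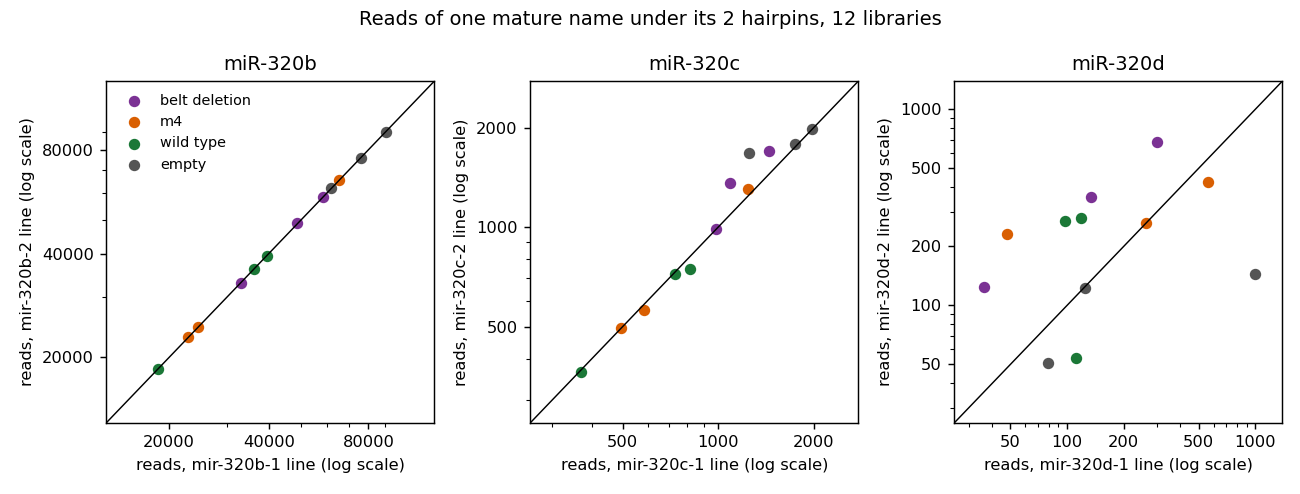
Reads of miR-320b, miR-320c and miR-320d on their paired hairpin lines in 12 libraries, both axes logarithmic, with the diagonal marking equal counts. miR-320b lies on the diagonal (at most 0.538% apart), miR-320c leaves it in 5 libraries by over 5%, and miR-320d in 10 libraries, by up to 6.91-fold in empty repeat 3.

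miR-320e was sporadic. It had 28, 300 and 10 reads with the belt deletion, 145, 8 and 194 with m4, 1, 1 and 112 with wild type and 530, 5 and 26 with empty plasmid. Each group held a library that was high and another that was low, and all groups overlapped. Its ratio to miR-320a-3p ranged 332-fold over the 12 libraries.

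The 5′ arm of the miR-320a hairpin was nearly absent. miR-320a-5p had 13 reads over 12 libraries, 0 to 4 in a library, against 884077 for miR-320a-3p, or 0.00147% (Wilson 95% interval 0.000859 to 0.00252%, counting error only). Over the 97 hairpins with at least 1000 reads the median share of the minor arm was 0.182%. In 31 of the 97, miR-320a's own included, that share was no higher than 0.00147%, and in 30 of them it was 0. A hairpin with a single arm listed counts as 0 here, as do those of miR-320b, c, d and e. Both the median and these counts include such hairpins, and the minor arm can be either arm. Among hairpins with a minor-arm share above 0, that of miR-320a was the lowest. In a hairpin near 1000 reads a single minor-arm read already gives a larger share. This rank therefore depends on depth and does not set miR-320a apart.

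To compare the level of miR-320 without letting it set its own scale, libraries were scaled by the median ratio over 4 other DROSHA-independent hairpins, the mirtrons mir-877, mir-1224 and mir-1226 and the capped mir-484. On this scale the family read 118102, 99313 and 133838 with the belt deletion, 67365, 157743 and 67476 with m4, 119577, 86311 and 114082 with wild type and 147936, 111497 and 152450 with empty plasmid. Belt-deletion, wild-type and empty-plasmid libraries overlapped. m4 repeat 2 was the highest of all 12 libraries, and the other m4 libraries were the lowest.

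No contrast of the scaled family was called by edgeR. The log2 change against empty plasmid was -0.23 for belt deletion (SE 0.38, adjusted p = 0.684), -0.49 for m4 (SE 0.38, adjusted p = 0.316) and -0.36 for wild type (SE 0.38, adjusted p = 0.493). The range of 2 SE to either side ran from -0.98 to 0.52 for belt deletion, -1.25 to 0.26 for m4 and -1.12 to 0.39 for wild type. The SE is approximate, being derived from the test statistic. Between DROSHA plasmids m4 differed from wild type by -0.13 (adjusted p = 0.825), and the change was 0.13 for belt deletion against wild type (adjusted p = 0.849) and 0.26 for belt deletion against m4 (adjusted p = 0.718). Without m4 repeat 2 the m4 change against empty plasmid was -1.001 and was called (adjusted p = 0.0251), and that of m4 against wild type was -0.66 (adjusted p = 0.178). That library was singled out partly by its scaled level, the value tested here, so these p-values are not an independent test.

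Of the members fitted singly on this scale, only miR-320d was called. Its log2 change against empty plasmid was 2.39 for belt deletion (SE 0.71, adjusted p = 0.0198), 2.10 for m4 (SE 0.70, adjusted p = 0.0392) and 1.77 for wild type (SE 0.69, adjusted p = 0.0689). Over 307 miRNAs tested, 44.6% were called higher for belt deletion against empty plasmid, 40.4% for m4 and 44.6% for wild type. Between DROSHA plasmids no member was called, where 39.1% of miRNAs were for m4 and wild type, 13.7% for belt deletion and wild type and 30.0% for belt deletion and m4. On the mir-320d-1 line the same changes were -0.80, 0.08 and -0.83, none of them called. Over 12 fits that each left out a library the m4 call held without belt-deletion repeat 1, belt-deletion repeat 3 or wild-type repeat 2 and was lost in the other 9 (adjusted p of 5.17e-05 to 0.125), and the belt-deletion call was lost without empty repeat 1 (adjusted p = 0.0687) or empty repeat 2 (adjusted p = 0.0536). Both were lost with repeat number as a block (adjusted p = 0.0659 for belt deletion and 0.0842 for m4), with TMM (0.0892 and 0.138, adjusted p) and with DESeq2's size factors (0.0687 and 0.0930, adjusted p). The belt-deletion call was also lost with total reads (adjusted p = 0.0937), and the m4 call without mir-484 in the scaling (adjusted p = 0.0551) or with mir-1226 alone (adjusted p = 0.0932). The wild-type change was called with summed companions (adjusted p = 0.0473), mir-877 alone (0.000882), mir-1224 alone (0.00727) or mir-1226 left out (0.0191). DESeq2's test (adjusted p = 0.0190) and edgeR without a filter (adjusted p = 0.00112) also called it. It stayed uncalled in 9 of 12 fits that left out a library, and with TMM, DESeq2's size factors or total reads.

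The ratio of the family to each companion varied between libraries. Per read of mir-484, a capped hairpin, there were 265, 230 and 286 family reads with the belt deletion, 120, 306 and 136 with m4, 184, 155 and 205 with wild type and 175, 181 and 220 with empty plasmid. The belt-deletion libraries lay above all wild-type and empty-plasmid libraries. Per read of mir-877, a mirtron, there were 182, 128 and 177 family reads with the belt deletion, 93.8, 212 and 109 with m4, 193, 119 and 139 with wild type and 202, 143 and 208 with empty plasmid, and all groups overlapped.

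Per read of mir-1224, also a mirtron, there were 103, 75.3 and 134 family reads with the belt deletion, 99.3, 113 and 63.6 with m4, 168, 127 and 173 with wild type and 173, 133 and 170 with empty plasmid. The m4 libraries lay below all wild-type and empty-plasmid libraries. Per read of mir-1226 there were 436, 439 and 576 family reads with the belt deletion, 246, 668 and 246 with m4, 373, 343 and 467 with wild type and 618, 630 and 760 with empty plasmid. Belt-deletion and wild-type libraries lay below all empty-plasmid libraries.

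**Figure D4:**
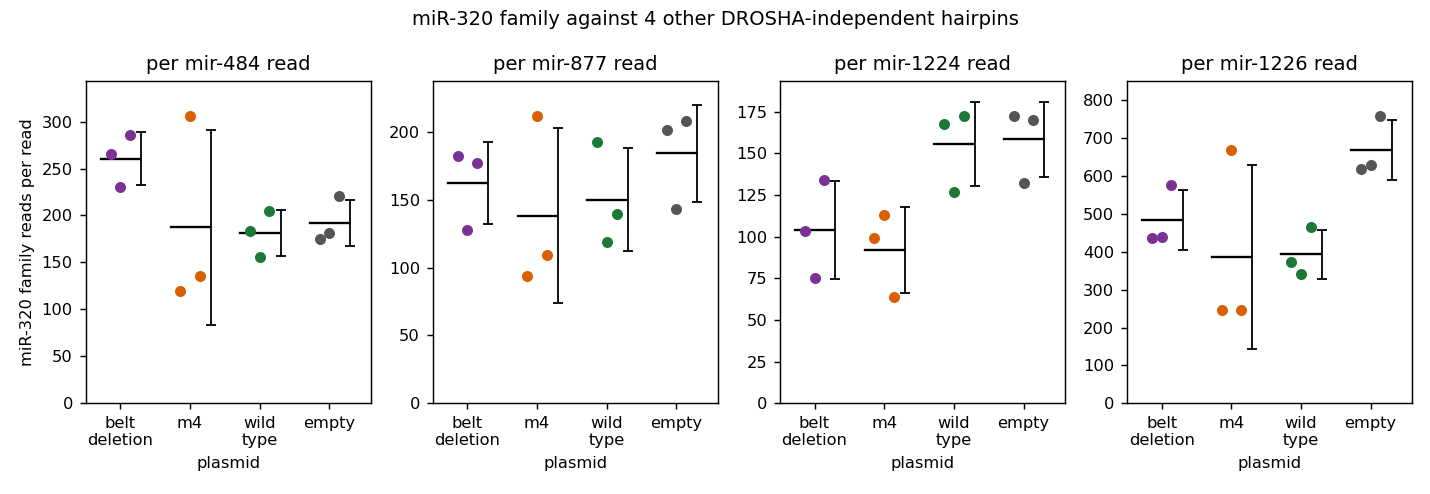
miR-320 family reads per read of 4 other DROSHA-independent hairpins, on linear axes from 0; points are libraries, long bars means and error bars the SD of 3 libraries. m4 repeat 2 is the highest m4 library in each panel (306 per mir-484 read against 120 and 136 in the other m4 libraries), and the order of the groups changes from panel to panel.

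Groups did not overlap in 6 of the 24 ratios and contrasts, each with an exact permutation p of 0.1 and an adjusted p of 0.4. How often ratios of all miRNAs to these hairpins separate was not computed, so the separations are given as description only. The log2 differences were 0.44 for belt deletion against empty plasmid and 0.53 for belt deletion against wild type beside mir-484, -0.82 for m4 against empty plasmid and -0.79 for m4 against wild type beside mir-1224, and -0.47 for belt deletion and -0.77 for wild type, each against empty plasmid, beside mir-1226. The direction of the belt-deletion difference from empty plasmid thus went one way beside mir-484 and the other way beside mir-1226.

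**Figure D5:**
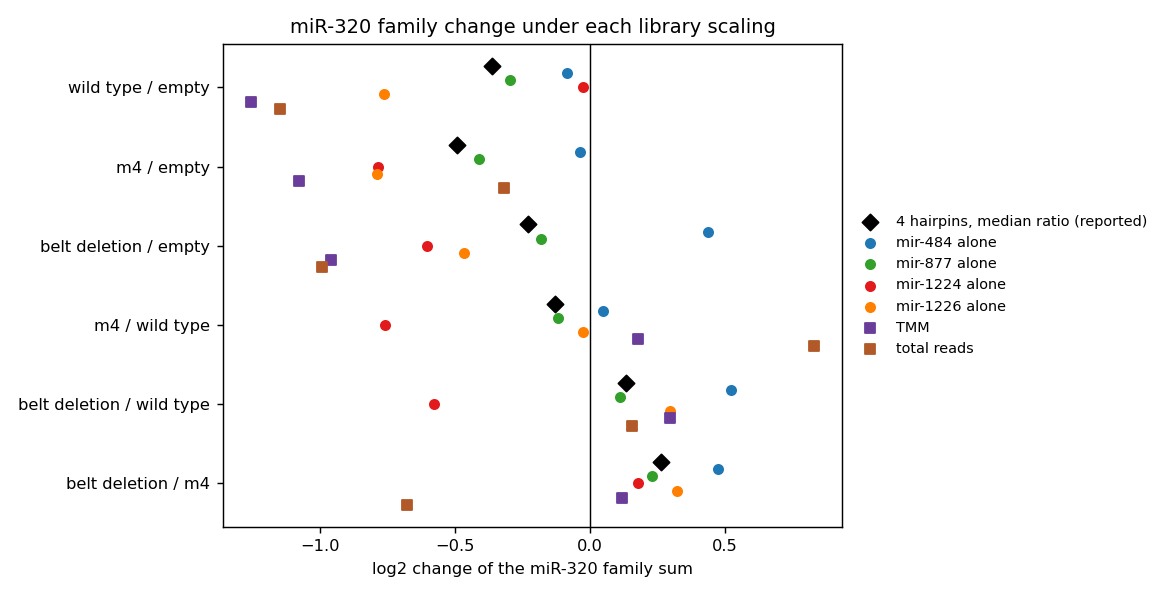
log2 change of the miR-320 family sum in 6 contrasts under the reported scaling (diamonds), each companion hairpin alone (circles) and scalings that use all miRNAs (squares). Against empty plasmid the TMM values are the farthest below 0 for m4 (-1.08) and wild type (-1.26), mir-484 alone places belt deletion above 0 (0.44), and the m4 against wild-type contrast ranges between -0.76 and 0.83.

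Other scalings moved the values for miR-320 against empty plasmid. With TMM the family change was -0.96 for belt deletion (adjusted p = 0.0157), -1.08 for m4 (adjusted p = 0.0119) and -1.26 for wild type (adjusted p = 0.00159). With total reads it was -0.99 for belt deletion (adjusted p = 0.000147), -0.32 for m4 (adjusted p = 0.233) and -1.15 for wild type (adjusted p = 1.43e-05), so m4 was not called. On the companion scale the median miRNA was 0.80 higher on the log2 scale for belt deletion, 0.76 higher for m4 and 0.87 higher for wild type, each against empty plasmid. With TMM those medians were 0.02 for belt deletion, 0.16 for m4 and -0.12 for wild type, and with total reads -0.04, 1.08 and -0.10 for the same plasmids.

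The other DROSHA-independent miRNAs had small median changes, on a scale that most of those tested helped to set. Of 15 mature names of miR-484 and the listed mirtrons in the table, 9 could be tested. Their median log2 change against empty plasmid was 0.06 for belt deletion, -0.10 for m4 and -0.25 for wild type, against 0.80, 0.76 and 0.87 over all 307 miRNAs. Most of the 9 are arms of the hairpins that set the scale. A small median is therefore built in, and its gap from that of all miRNAs is no test. Single names moved more without being called by edgeR. miR-877-3p changed by -1.04 for belt deletion (edgeR adjusted p = 0.0539) and miR-1226-3p by 0.87 for wild type (edgeR adjusted p = 0.142), each against empty plasmid. miR-484 fell with the belt deletion (-0.68, adjusted p = 0.0438) and miR-1229-3p rose with m4 (1.09, adjusted p = 0.0302), both against empty plasmid, and none was called between DROSHA plasmids. Over all miRNAs 0.651% were called lower for belt deletion against empty plasmid.

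Outside the family, the miRNAs that followed it most closely over the 12 libraries were found by the SD of their log2 ratio to the family sum, among 65 miRNAs averaging at least 100 reads. They were miR-3615 (SD 0.279), miR-1292-5p (0.314), miR-877-5p (0.402), miR-6511b-5p (0.418), miR-484 (0.419) and miR-7706 (0.432). miR-877-5p and miR-484 were also among the companions used for scaling. By the same measure the canonical miRNAs, chosen with earlier results known, lay near the far end of the 65. miR-21-5p had an SD of 2.47, let-7i-5p of 2.87 and miR-10a-5p of 2.89. These SDs describe likeness over libraries that share depth and plasmid, and they carry no test.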

How the data were processed

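Small RNA libraries of 12 samples were analysed from the deposited table, which holds raw counts of reads with a line for each mature miRNA of each hairpin. The genome build hg38 and the tools cutadapt and Bowtie2 are named per the submitters' processing notes; the counting tool, the miRNA annotation and how a read fitting several hairpins was counted are not given in the sources used here. Per the labels' protocols, small RNAs from 10 µg of TRIzol-extracted total RNA were size-selected on a 15% gel and cloned with a NEBNext kit.

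Blank cells (7220) were read as 0. For a name listed under several hairpins (1409 lines, 1286 names) the line with most reads over all libraries was kept, and 9 pairs of names with near-identical counts (within 5 reads or 5.0%, at least 120 reads in all) were merged, leaving 1277 miRNAs. All 12 libraries, in 4 groups, were fitted together with edgeR 4.0.16 (R 4.3.3), quasi-likelihood test, filterByExpr, threshold an adjusted p of 0.05; library sizes came from the median ratio over hairpins with at least 20 reads in every library, or from the family sum. DESeq2 1.42.0, TMM, total reads, single companions, other hairpin lines, a repeat block, no filter and each library left out were alternatives. Shares and ratios were tested with two-sided exact permutation tests (scipy 1.17.1), and hairpins folded with RNAfold 2.7.2. The fitting code was tested on simulated data.

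Besides the members, the text names the miR-320a 5′ arm, seed mates, companion hairpins, the 6 miRNAs most like the family and 3 canonical miRNAs. The members and lists were chosen with earlier results of these data known. Reads carry no molecular identifiers.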

Additional observations from a re-analysis of the deposited data

How the results depend on the processing

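The family share kept its direction under every alternative run, with 6 contrasts compared. Its log2 differences were smaller with miR-21-5p left out of the reads. Against empty plasmid they were then -0.59 (belt deletion), -0.27 (m4) and -0.75 (wild type). m4 against wild type was 0.48, belt deletion against wild type 0.16 and belt deletion against m4 -0.32 (exact permutation p = 0.2 for the last). The scaled level did not keep its direction. For the family against empty plasmid, DESeq2's size factors gave -0.85 (belt deletion), -0.92 (m4) and -1.02 (wild type) on the log2 scale, TMM gave -0.96, -1.08 and -1.26, and total reads gave -0.99, -0.32 and -1.15 in the same order, all called except m4 with total reads (adjusted p = 0.233). mir-1224 alone gave -0.78 for m4, called, and mir-484 alone gave 0.44 for belt deletion. m4 against wild type became 0.18 with TMM, 0.10 with DESeq2's size factors, 0.83 with total reads, 0.047 with mir-484 alone and 0.018 without mir-1224, and -0.76, called, with mir-1224 alone. Belt deletion against wild type became -0.032 with summed companions, -0.051 without mir-484 and -0.58 with mir-1224 alone, and belt deletion against m4 became -0.68 with total reads. Over left-out libraries m4 against empty plasmid ranged between -1.001 (without m4 repeat 2) and -0.28, and m4 against wild type between -0.66 and 0.074.

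In the balance, the count of members called against empty plasmid went to 0 in all 3 contrasts with summed lines or the mir-320d-1 line. On that line miR-320d to miR-320a-3p was -0.22 for belt deletion against empty plasmid and -0.54 against wild type (-0.029 with summed lines), and miR-320d levels were -0.80 for belt deletion and -0.83 for wild type (relative to the family, -0.41 and -0.30). Over left-out libraries, miR-320d to miR-320a-3p ranged between -0.14 and 1.22 for belt deletion against wild type and between -0.90 and 0.46 against m4. The family to mir-484 ranged between -0.18 and 0.020 (wild type against empty), -0.58 and 0.093 (m4 against empty) and -0.50 and 0.18 (m4 against wild type); to mir-877 between -0.54 and 0.051 (m4 against wild type) and -0.030 and 0.32 (belt deletion against wild type); to mir-1224 between -0.15 and 0.11 (wild type against empty) and -0.064 and 0.40 (belt deletion against m4); and to mir-1226 between -0.67 and 0.055 (m4 against wild type). The causes were not tested.

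Counts of miRNAs called lower moved most with scaling: against empty plasmid 2, 3 and 3 (belt deletion, m4, wild type) became 43, 19 and 92 with TMM, and the rises of 137, 124 and 137 became 115, 84 and 126. For belt deletion against m4, 88 rises and 4 falls became 47 and 121 with total reads. Repeat numbers did not pair the libraries: same-numbered pairs correlated between -0.256 and 0.199 (18 pairs), and 0 of 12 libraries correlated best with its own number. The repeat block (the family at -0.23 for belt deletion, -0.51 for m4 and -0.36 for wild type against empty plasmid) moved 2 counts of miRNAs called by over 1.5 times: relative to the family, rises for m4 against wild type went to 5 with it, against 9 without, and on the companion scale falls for belt deletion against empty plasmid went to 1, against 2. Of the calls on members it ended those of the miR-320d level. miR-320e had as few as 1 read in a library.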
